A study of Mus musculus with 6 samples.

Results

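The CC chemokine receptors are described here in regulatory T cells (Tregs) of the mouse colon during TNBS colitis. The set holds 9 of the 24537 genes in the deposited table, Ccr1, Ccr2, Ccr3, Ccr4, Ccr6, Ccr7, Ccr8, Ccr9 and Ccr10, each taken by its gene symbol. The 9 genes were selected on transcript levels of these same 6 libraries, with the difference between the groups already known, so that difference is given as a description and no p-value is attached to it. RNA-seq was done on 3 libraries labelled REV-ERB KO and 3 labelled REV-ERB WT. All 6 came from mice treated with TNBS, a hapten that provokes a T cell driven inflammation of the bowel wall (150 µl of a 1% solution on the skin, then 100 µl of a 2.5% solution into the rectum after 7 days), so no library without colitis is in the comparison. The allele, the cell type in which it acts, the strain, the age and sex of the mice and the way the Tregs were sorted were not stated in the labels. The question of the comparison is how Tregs of the inflamed colon differ with the loss of REV-ERBα, the nuclear receptor named in the series title, a repressor of transcription in the circadian clock.

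Chemokine receptors are cell surface proteins that span the membrane repeatedly, couple to inhibitory G proteins and steer a cell up a gradient of their ligand. CC receptors bind ligands of the CC family, and most receptors bind several ligands. In the gut, Ccr9 directs T cells to the small intestine, Ccr6 to sites that make Ccl20, and Ccr2 to inflamed tissue, while Ccr4 and Ccr8 are frequent on Tregs in tissues and Ccr7 serves entry into lymph nodes.

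Values are TPM (transcript levels corrected for gene length and depth), so levels can be compared between genes, and means are given ± SD over n = 3 libraries per group. The reads recovered from the TPM values came to between 12641850 and 15890630 per KO-labelled library and between 9794480 and 12122575 per WT-labelled library, so each KO-labelled library was the deeper. Nr1d1, which encodes REV-ERBα, stood at 169.2, 154.3 and 141.4 TPM in KO 1, 2 and 3 and at 66.3, 104.0 and 88.2 TPM in WT 1, 2 and 3. It was higher in the group labelled as its loss, and since the row covers the whole transcript and the deleted part is not given, it does not check the labels. All directions below follow the labels. Treg markers were present in every library, but 8 of the 9 had the lower mean in the KO-labelled group, and their summed level ran from 4278 to 4857 TPM there against 5574 to 6050 TPM in the WT-labelled group. The markers were uneven in this. Foxp3, Ctla4, Cd4, Cd3d and Cd3g were lower without overlap, while Il2ra, Ikzf2, Cd3e and Tnfrsf18 overlapped between the groups. All 17 epithelial markers had the higher KO-labelled mean (sums of 3657 to 6809 against 2352 to 3508 TPM), and markers of monocytes and macrophages (942.4 to 1734 against 927.2 to 1432 TPM) and of B and plasma cells (574.8 to 2161 against 751.8 to 1603 TPM) were present in both groups. The 6 CD8 and NK cell markers summed to 9.37 to 15.6 against 9.99 to 22.2 TPM, with Cd8b1 at 4.67 to 7.35 TPM and Cd8a and Eomes below 1 TPM in all 6 libraries.

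The libraries, which also held transcripts of other cell types, carried 4 receptor transcripts at high levels, 2 at intermediate levels and 3 at low levels. In the WT-labelled libraries Ccr2 was the most abundant at 548.3 ± 135.6 TPM, followed by Ccr7 at 306.2 ± 12.5, Ccr8 at 233.1 ± 14.6 and Ccr4 at 220.6 ± 43.7 TPM. Ccr6 (104.0 ± 14.2) and Ccr1 (72.8 ± 16.3) came next, and Ccr3 (19.6 ± 2.45), Ccr9 (13.1 ± 4.78) and Ccr10 (5.09 ± 2.71) were last. Neighbours in this order did not overlap in their ranges, except Ccr8 with Ccr4 and Ccr3 with Ccr9. In the KO-labelled libraries Ccr7 (275.2 ± 43.5), Ccr8 (255.5 ± 63.2) and Ccr2 (243.4 ± 9.77) overlapped at the top, Ccr4 followed at 211.6 ± 15.4 TPM, and Ccr1 (68.8 ± 11.1) overlapped with Ccr6 (64.7 ± 6.56). The lowest receptors, Ccr3 (9.14 ± 2.95), Ccr9 (5.97 ± 2.51) and Ccr10 (4.77 ± 1.24), overlapped from one to the next. Ccr2 thus ranked first in each of the 3 WT-labelled libraries and second in each of the 3 KO-labelled libraries, where Ccr8 (KO 1) or Ccr7 (KO 2 and KO 3) exceeded it.

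**Figure D1:**
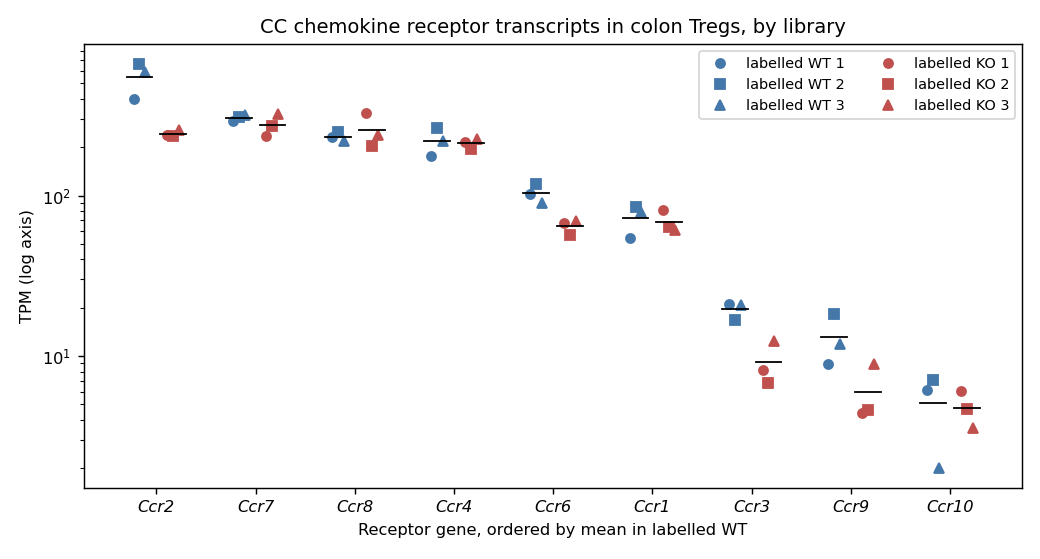
TPM of the 9 receptors on a log axis, with 1 point per library (blue, labelled WT; red, labelled KO; the marker shape gives the replicate number) and a black line at each group's mean. Ccr2, Ccr6, Ccr3 and Ccr9 have all 3 red points below all 3 blue ones, by only 0.101 TPM for Ccr9, and the other 5 receptors overlap.

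Among the 9 receptors, 4 were lower in every KO-labelled library than in every WT-labelled library, and none was higher without overlap. These were Ccr2, Ccr3, Ccr6 and Ccr9, and over all 13211 genes tested 10.4% were lower in this way and 10.6% higher. The members were chosen with this contrast known, so nothing is read from their share. No gene of the whole table passed limma's test at a Benjamini-Hochberg adjusted p of 0.05, a share of 0%, and limma's voom on the recovered reads called 0 as well. In limma 7.86% of genes were lower and 7.8% higher at an unadjusted p under 0.05. The median log2 difference was -0.16 over the 9 receptors and -0.003 over all genes tested. RNA from a mixture of cells cannot tell fewer cells of a type from less RNA per cell.

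The sequences before the start sites of the 4 receptors that were lower without overlap are shown because REV-ERBα binds DNA at a half-site, AGGTCA, that other nuclear receptors share. RefSeq promoters (GRCm38.p6) matched 7 of the 9 receptors at the start site of the table's transcript, all but Ccr7 and Ccr10. The 250 bases before each start are printed 5′ to 3′ on the gene's strand, with AGGTCA on either strand in capitals. They lie at chr17:8235793-8236042 (Ccr6), chr9:124101933-124102182 (Ccr2), chr9:124021721-124021970 (Ccr3) and chr9:123766961-123767210 (Ccr9), all on the plus strand.
Ccr6: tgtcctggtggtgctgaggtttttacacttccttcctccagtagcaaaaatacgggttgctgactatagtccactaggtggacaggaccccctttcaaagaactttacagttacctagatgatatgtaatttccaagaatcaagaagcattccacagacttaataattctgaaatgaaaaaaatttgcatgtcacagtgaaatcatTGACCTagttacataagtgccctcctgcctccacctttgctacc
Ccr2: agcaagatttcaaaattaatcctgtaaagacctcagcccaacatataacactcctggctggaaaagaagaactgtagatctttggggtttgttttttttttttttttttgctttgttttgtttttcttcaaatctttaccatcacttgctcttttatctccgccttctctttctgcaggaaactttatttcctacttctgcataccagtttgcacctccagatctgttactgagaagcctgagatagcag
Ccr3: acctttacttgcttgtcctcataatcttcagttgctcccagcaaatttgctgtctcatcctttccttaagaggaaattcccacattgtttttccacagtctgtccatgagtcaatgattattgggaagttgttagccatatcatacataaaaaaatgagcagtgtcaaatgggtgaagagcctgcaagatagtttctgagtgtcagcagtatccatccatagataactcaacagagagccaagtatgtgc
Ccr9: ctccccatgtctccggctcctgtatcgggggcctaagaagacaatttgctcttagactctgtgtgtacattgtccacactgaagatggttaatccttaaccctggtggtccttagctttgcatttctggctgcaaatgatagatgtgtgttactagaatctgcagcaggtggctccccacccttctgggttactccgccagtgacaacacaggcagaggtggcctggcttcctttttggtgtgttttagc

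The half-site AGGTCA occurred in 1 of the 7 receptor promoters, that of Ccr6, on the minus strand with its first printed base at -44 from the start. Of all 32851 promoter windows of this length, 4607 held it on either strand. The T before the half-site (TAGGTCA, which contains AGGTCA and stood in 2.23% of all windows) was also there in Ccr6. The match extended to the full RORE, the 11-letter consensus that REV-ERB proteins bind, which 0.332% of all windows held. RORE was searched after the shorter match had been seen. CACGTG, the E-box that clock activators bind, was in none of the 7 windows and in 6.02% of all. TGTGGT, the core bound by RUNX factors, was in 1 of the 7, Ccr1, and in 4614 of all windows. These are matches of letters and show no binding.

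Ccr2, the receptor for Ccl2, which draws monocytes and activated T cells into inflamed tissue, was measured at 238.9, 236.7 and 254.6 TPM in KO 1, 2 and 3. WT 1, 2 and 3 held 397.3, 659.8 and 587.8 TPM. The highest KO-labelled value lay 142.7 TPM below the lowest WT-labelled value, and the WT-labelled libraries differed more among themselves than the KO-labelled ones did. The group means differed 2.25-fold (-1.14 on the log2(TPM + 1) scale, KO minus WT, SE 0.18), and 0.6% of all tested genes had a lower difference. Ccr2 lies on mm10 chromosome 9 from 124102183 to 124109140 on the plus strand, and its transcript NM_009915 has 3 exons of which 1 holds the coding sequence. Monocytes also carry Ccr2. Each of their 14 markers overlapped between the groups, 12 with the higher mean in the KO-labelled libraries, and their part in the level of Ccr2 was not tested.

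Ccr1, a receptor for Ccl3 and Ccl5 that monocytes, neutrophils and activated T cells carry, stood at 81.5, 64.2 and 60.8 TPM in the KO-labelled libraries and at 54.1, 84.7 and 79.5 TPM in the WT-labelled ones. The groups overlapped throughout, and the log2 difference of -0.07 (SE 0.189) had the opposite sign in 4 of 14 other settings. Neutrophil markers, by contrast, summed to 14.1 to 42.2 TPM in the KO-labelled libraries and 4.35 to 11.4 TPM in the WT-labelled ones, with Ngp and Camp at 0 throughout. The level of Ccr2 relative to Ccr1 separated the groups widely. Ccr2 was 2.93, 3.69 and 4.19 times the level of Ccr1 in KO 1, 2 and 3, and 7.34, 7.79 and 7.39 times in WT 1, 2 and 3. This ratio was chosen after its values were seen.

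Ccr3, the receptor for the eotaxins Ccl11 and Ccl24 that is best known from eosinophils, was measured at 8.14, 6.82 and 12.5 TPM in KO 1, 2 and 3. The WT-labelled libraries held 21.2, 16.8 and 20.9 TPM. Each KO-labelled value was lower than each WT-labelled one, with a gap of 4.34 TPM, and the values rest on 207 to 512 reads per library. The means differed 2.15-fold (log2 difference -1.06, SE 0.223). Of the 12 markers of eosinophils, basophils and mast cells, 7 were below 1 TPM in all 6 libraries, among them the eosinophil genes Siglecf and Epx, and Tpsb2 was at 0. The eosinophil granule gene Prg2 stood at 2.51 to 7.55 TPM, Kit at 15.2 to 30.5 TPM, and Il5ra reached 1.74 TPM in KO 1. Mcpt1 and Mcpt2 stood at 19.9 and 3.91 TPM in KO 2, the library with the highest sum, and at or under 0.261 TPM in the others. The sums of all 12 markers overlapped, at 19.2 to 54.7 against 19.96 to 34.3 TPM, and their part in the level of Ccr3 was not tested.

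Ccr6, the receptor for Ccl20, which Th17 cells and a share of gut Tregs carry, stood at 67.7, 57.2 and 69.2 TPM in the KO-labelled libraries. The WT-labelled libraries held 102.6, 118.9 and 90.5 TPM. The groups were 21.3 TPM apart at their nearest values, with a 1.61-fold difference of the means (-0.67 on the log2 scale, SE 0.131). Ccr6 lies on chromosome 17 from 8236043 to 8257129 on the plus strand, behind the promoter with the half-site printed above.

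Ccr4 and Ccr8, receptors that mark Th2 cells and tissue Tregs, were nearly level. Ccr4, which binds Ccl17 and Ccl22, stood at 216.4, 194.4 and 224.0 TPM in the KO-labelled libraries and at 177.2, 264.6 and 219.8 TPM in the WT-labelled ones. Its log2 difference was -0.04 (SE 0.15). Ccr8, which binds Ccl1 and in mice also Ccl8, stood at 325.7, 203.5 and 237.3 TPM against 232.2, 248.1 and 219.1 TPM. Its spread came from KO 1, which lay above the other 5 libraries. Without KO 1 the log2 difference of Ccr8 went from 0.11 to -0.08, so its sign rested on that library.

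Ccr7, the receptor for Ccl19 and Ccl21 that guides T cells and dendritic cells into lymph nodes, was measured at 234.5, 270.1 and 321.0 TPM in the KO-labelled libraries and at 292.7, 308.6 and 317.4 TPM in the WT-labelled ones. KO 3 was the highest of all 6 and KO 1 the lowest, so the groups overlapped (log2 difference -0.16, SE 0.127). Summed markers of dendritic cells ran from 51.5 to 84.2 TPM and from 53.7 to 66.3 TPM in the KO-labelled and WT-labelled libraries, with Siglech at or under 0.287 TPM.

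Ccr9, the receptor for Ccl25 that directs T cells to the small intestine, was measured at 4.42, 4.62 and 8.86 TPM in KO 1, 2 and 3 and at 8.96, 18.3 and 11.9 TPM in WT 1, 2 and 3. The values do not overlap, but KO 3 and WT 1 lie 0.101 TPM apart. These 2 libraries hold 410 and 257 reads of Ccr9, with 95% Poisson intervals for counting error of 8.02 to 9.76 and 7.90 to 10.1 TPM. At this depth they were thus not distinguishable. The intervals take each read as an independent count and are too narrow if reads were not independent. The means differed 2.19-fold (log2 difference -1.02, SE 0.319). Ccr10, the receptor for Ccl27 and Ccl28 found on skin-homing T cells and on plasma cells, stood at 6.05, 4.69 and 3.58 TPM against 6.13, 7.14 and 2.02 TPM. With 26 to 95 reads per library it was the least precise of the 9. Its mean was lower in the KO-labelled group while its log2 difference was 0.02 (SE 0.388), so the 2 measures differ in sign. KO 3 and WT 3, its lowest libraries, were also lowest in summed B and plasma cell markers, at 574.8 and 751.8 TPM, and the part of those cells was not tested.

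**Figure D2:**
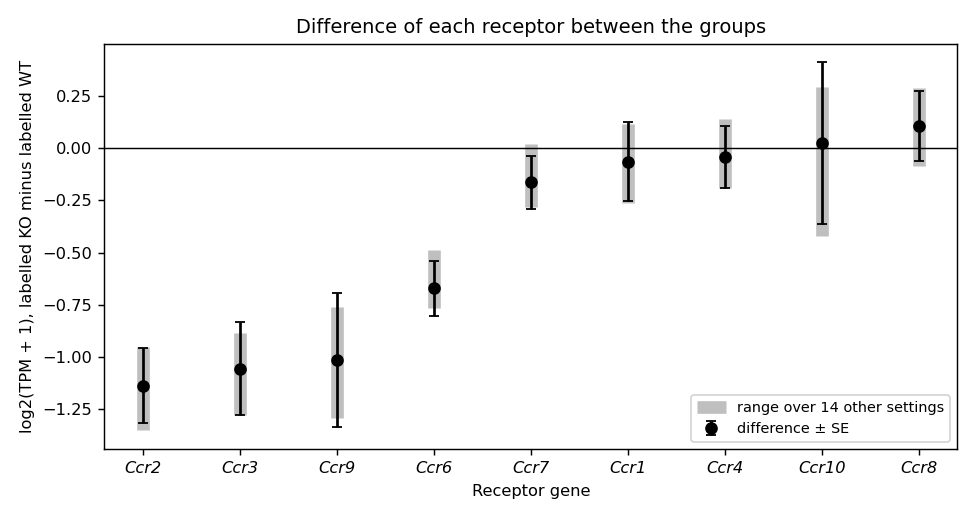
Difference of each receptor on the log2(TPM + 1) scale, the labelled KO group minus the WT group; points are the estimates, bars ± 1 SE from the fit across all genes, and grey bands the range over 14 other settings. Ccr2, Ccr3, Ccr9 and Ccr6 lie below 0 together with their grey bands, and the bands of the other 5 cross 0.

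The 4 receptors without overlap kept their direction in all 14 other settings, but most of these could not have turned it. Groups without overlap keep their direction when a library is left out or the pseudocount is changed. The other filters, the fit without a variance trend and the replicate block left the estimates as they were. Only quantile normalization, T cell gene scaling and voom could have changed the direction. The log2 difference of Ccr2 ran from -1.35 to -0.95, that of Ccr3 from -1.28 to -0.89, that of Ccr9 from -1.29 to -0.76 and that of Ccr6 from -0.77 to -0.49. Scaling each library to the mean level of 12 T cell genes, among them Cd3e, Lck and Cd2, put the median of all genes at 0.164. Ccr2 then differed by -0.95, Ccr3 by -0.89, Ccr9 by -0.85 and Ccr6 by -0.49, or by -1.12, -1.05, -1.02 and -0.65 relative to the median of all genes. The same 4 remained without overlap. Ccr1, Ccr4 and Ccr7 then stood at 0.12, 0.14 and 0.02, above 0 but below the median of all genes. Ccr8 was then higher without overlap, with 234.2 scaled TPM in KO 2 next to 233.6 in WT 1.

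The 9 receptors together summed to 1183, 1042 and 1192 TPM in KO 1, 2 and 3 and to 1292, 1727 and 1549 TPM in WT 1, 2 and 3. Ccr2 made up most of that distance. Without Ccr2 the sums were 944.5, 805.5 and 937.2 against 895.1, 1067 and 961.1 TPM, and the groups overlapped. Ccr2 held 21.4% ± 1.26 of the receptor transcripts in the KO-labelled libraries and 35.6% ± 4.24 in the WT-labelled ones. In the same order, Ccr4 held 18.6% ± 0.264 and 14.4% ± 0.824, Ccr8 22.3% ± 4.51 and 15.5% ± 2.14, and Ccr7 24.2% ± 3.85 and 20.3% ± 2.39. The ranges of Ccr2, Ccr4, Ccr8 and Ccr6 did not overlap, and those of the other receptors did. They were 18.3% to 18.8% against 13.7% to 15.3% for Ccr4, and 5.49% to 5.81% against 5.84% to 7.94% for Ccr6. Ccr1 held 6.05% ± 0.898 and 4.74% ± 0.493, and Ccr10 0.421% ± 0.108 and 0.339% ± 0.184. The mean shares of Ccr6 (5.67% ± 0.166 and 6.89% ± 1.05), Ccr3 (0.796% ± 0.217 and 1.32% ± 0.334) and Ccr9 (0.52% ± 0.197 and 0.84% ± 0.194) were lower in the KO-labelled libraries, as that of Ccr2 was. Shares add up to a fixed total, so they are not independent of each other.

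**Figure D3:**
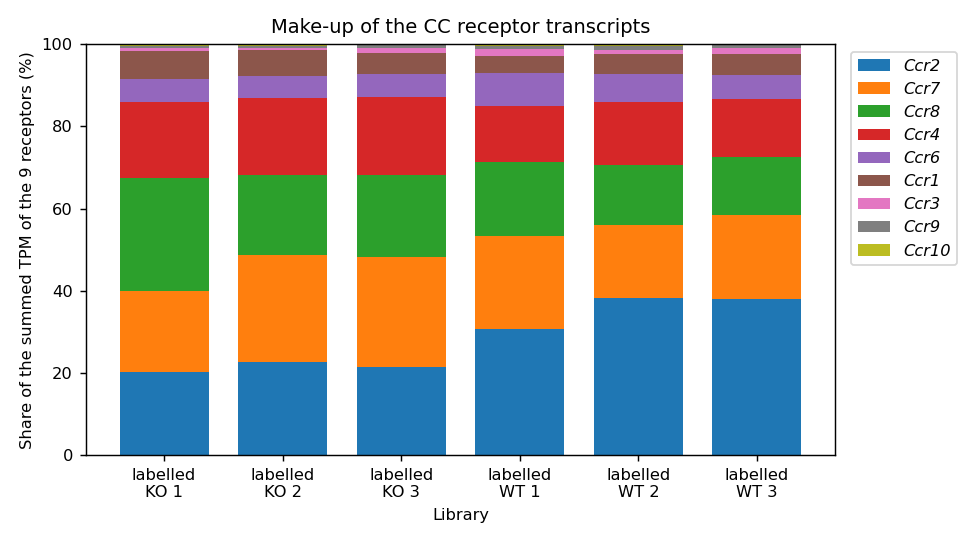
Share of each receptor in the summed TPM of the 9 receptors, in percent, with 1 stacked bar per library. The lowest segment, Ccr2, fills 20.2% to 22.7% of the bars labelled KO and 30.7% to 38.2% of those labelled WT.

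Within each group most receptors peaked in the same library. KO 3 was the highest of its group for 6 of the 9 receptors, and WT 2 for 7 of the 9, while these libraries were the highest of their group for 44.6% and 32.6% of all tested genes. WT 1 was the lowest of its group for 5 receptors, Ccr1, Ccr2, Ccr4, Ccr7 and Ccr9, and for 44.3% of all tested genes. KO 2 was the lowest of its group for 5 receptors, Ccr2, Ccr3, Ccr4, Ccr6 and Ccr8, and for 30.1% of all tested genes. The 12 T cell genes followed the same order at the top, with the highest mean of each group in KO 3 (8.23 on the log2 scale) and WT 2 (8.36). The summed epithelial markers were lowest in those same libraries, at 3657 TPM in KO 3 and 2352 TPM in WT 2. Their part in the receptor levels was not tested beyond the T cell gene scaling above.

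Neighbouring receptor genes differed in direction. Of the 9 receptor genes, 6 lie on mouse chromosome 9, and Ccr9, Ccr1, Ccr3 and Ccr2 follow each other there within 341.9 kb, together with the receptor genes Cxcr6 and Xcr1. From the Ccr9 gene onward, Ccr9 had a log2 difference of -1.02, Cxcr6 of 0.59 at 39.3 kb, Xcr1 of 0.60 at 85.1 kb, Ccr1 of -0.07 at 194.9 kb, Ccr3 of -1.06 at 254.8 kb and Ccr2 of -1.14 at 335.0 kb. Cxcr6, Xcr1 and the level Ccr1 thus lie between Ccr9 and the pair Ccr3 and Ccr2. Xcr1 was low and overlapped, at 1.96 ± 1.66 against 0.783 ± 0.383 TPM. The row of none of the 9 overlaps another row of the table, and each is a transcript with 1 genomic copy.

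**Figure D4:**
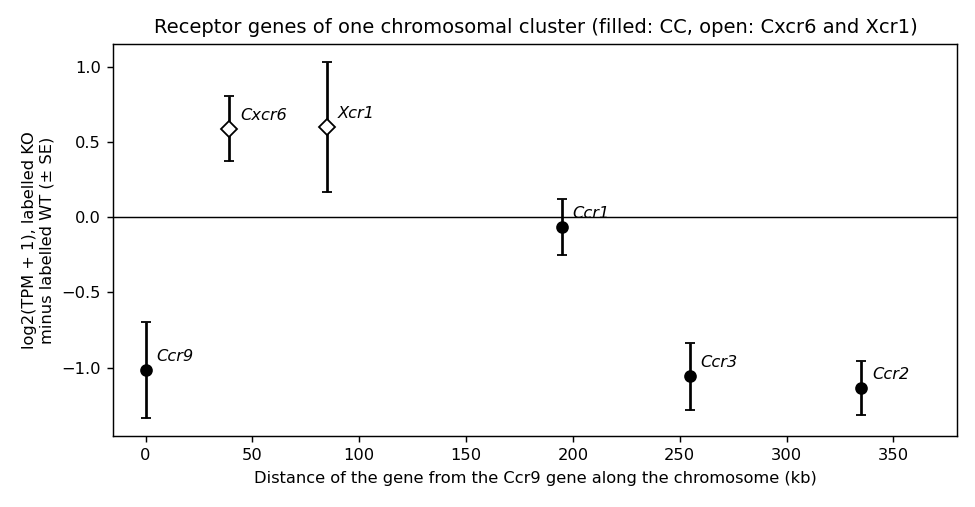
Log2 difference (labelled KO minus labelled WT, ± SE) of the 6 receptor genes described in the text that lie in one cluster, plotted by distance in kb from the Ccr9 gene; filled circles are CC receptors, open diamonds Cxcr6 and Xcr1, and other genes of the stretch are not drawn. Ccr9, Ccr3 and Ccr2 lie near -1, Ccr1 near 0, and Cxcr6 and Xcr1 above 0.

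The ligands of the 9 receptors were present at low to moderate levels, and more of them were above 0 in the log2 difference than below. Of 19 ligand genes, 18 could be tested, 13 above and 5 below 0 with a median of 0.53, against -0.003 over all genes. None passed limma's adjusted threshold (smallest adjusted p = 0.0678), and 6 were higher and 0 lower at an unadjusted p under 0.05, against 7.8% and 7.86% of all genes tested. Without overlap, 5 were higher in the KO-labelled libraries, Ccl20, Ccl21a, Ccl24, Ccl27a and Ccl28, and 0 lower, against 10.6% and 10.4% of all genes. Many of these ligands are made by epithelial, stromal or myeloid cells. The sums of epithelial markers did not overlap between the groups either, so these 5 ligands and the epithelial sums shared the split into groups. Within the groups the order differed by ligand. Ccl28 followed the epithelial sums, while Ccl20 was highest in KO 3 and lowest in WT 1. Those libraries had the lowest epithelial sum of the KO-labelled group and the highest of the WT-labelled group. Neutrophil marker sums did not overlap either (14.1 to 42.2 against 4.35 to 11.4 TPM), and monocyte and macrophage sums did. The part of such cells in the ligand levels was not tested.

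Ccl20, the only ligand listed for Ccr6 and one that epithelium and Th17 cells make, stood at 48.6, 59.5 and 65.8 TPM in the KO-labelled libraries and at 13.3, 23.7 and 26.8 TPM in the WT-labelled ones. The ligand was thus higher (log2 difference 1.45, SE 0.251, limma adjusted p = 0.1192) in the libraries where its receptor was lower. Ccl24, an eotaxin and ligand of Ccr3, showed the same arrangement, at 9.39, 22.8 and 14.3 TPM against 0, 0.906 and 1.04 TPM (log2 difference 3.31, SE 0.386, limma adjusted p = 0.0678), with 102 to 272 against 0 to 10 reads. Ccl11, the other eotaxin, ran from 7.45 to 65.6 TPM in the KO-labelled libraries and from 6.16 to 21.5 TPM in the WT-labelled ones, and overlapped. KO 1 alone held the value of 65.6 TPM.

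For Ccr2, its ligand Ccl2 stood at 11.9 ± 5.39 against 9.64 ± 0.872 TPM, Ccl7 at 6.112 ± 5.01 against 7.503 ± 3.81 and Ccl12 at 6.62 ± 1.34 against 7.11 ± 2.06 TPM, all overlapping. For Ccr1, Ccl3 (35.95 ± 19.0 against 38.7 ± 6.996 TPM), Ccl5 (40.3 ± 20.5 against 41.3 ± 14.1) and Ccl9 (6.58 ± 2.10 against 5.11 ± 1.32) overlapped, and so did Ccl6 at 43.9 ± 11.4 against 28.8 ± 6.50 TPM (limma adjusted p = 0.2962). Ccl5 and Ccl3 are ligands that activated T cells make themselves. Their levels were below that of the receptor Ccr1 in 6 of 6 libraries for Ccl3 and in 5 of 6 for Ccl5, the exception being WT 1.

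For Ccr4, Ccl17 stood at 4.38 ± 3.36 against 1.57 ± 0.957 TPM and Ccl22 at 8.66 ± 7.19 against 6.16 ± 0.964 TPM. For Ccr8, Ccl1 stood at 8.53 ± 3.12 against 11.8 ± 7.56 TPM and Ccl8 at 37.1 ± 16.8 against 24.2 ± 6.84 TPM. For Ccr7, Ccl21a had 18, 118 and 50 reads in the KO-labelled libraries and 0, 2 and 0 in the WT-labelled ones (limma adjusted p = 0.1295). The table gives Ccl21a and Ccl19 more than 1 genomic copy each, so reads may be split among near-identical genes. Ccl19 is listed at 0 in all 6 libraries. For Ccr9, Ccl25 stood at 2.53 ± 1.17 against 1.44 ± 0.802 TPM, and for Ccr10, Ccl27a at 2.42 ± 0.256 against 0.982 ± 0.339 and Ccl28, a mucosal ligand of epithelial origin, at 11.8 ± 2.72 against 6.11 ± 2.52 TPM (limma adjusted p = 0.2125 and 0.2305).

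**Figure D5:**
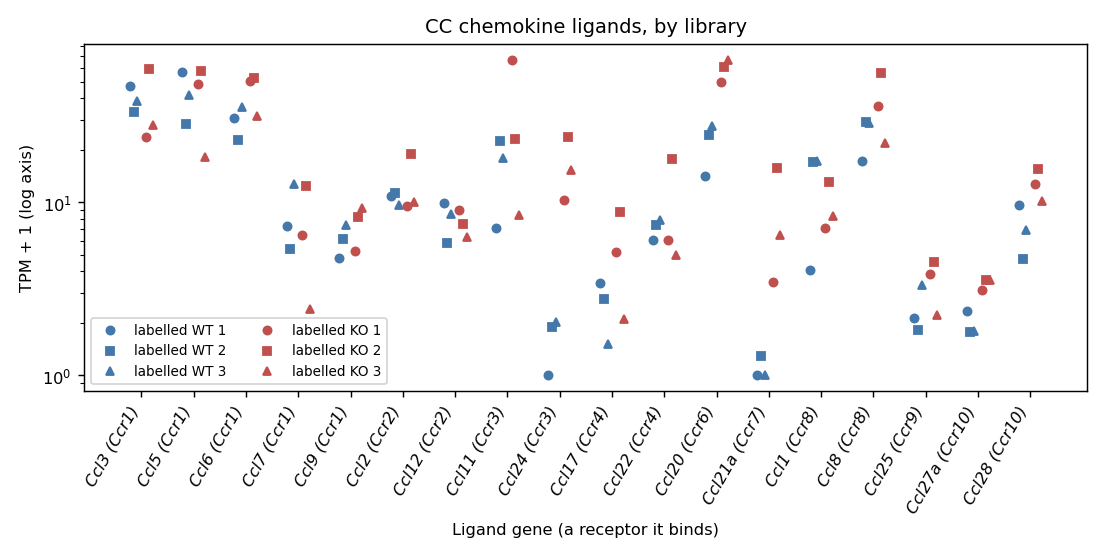
TPM + 1 on a log axis of 18 CC ligand genes, each followed by a receptor it binds, with 1 point per library (blue, labelled WT; red, labelled KO). Ccl20 and Ccl24 have all red points above all blue ones, as have Ccl21a, Ccl27a and Ccl28, and the other ligands overlap.

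Of 22 other chemoattractant and atypical receptors, 18 could be tested, and none passed the adjusted threshold in either direction (3 lower and 1 higher at an unadjusted p under 0.05, against 7.86% and 7.8% of all genes tested, median -0.12). Cxcr3, the receptor of Th1 cells, stood at 34.2, 41.1 and 41.2 TPM against 76.5, 86.1 and 84.1 TPM (log2 difference -1.07, SE 0.114, limma adjusted p = 0.0678), a distance close to that of Ccr2 and Ccr3. Cxcr5, the receptor of follicular T cells, stood at 17.9 ± 3.75 against 34.3 ± 4.45 TPM (adjusted p = 0.1296 in limma) and Ltb4r1, the leukotriene B4 receptor, at 19.8 ± 1.41 against 28.2 ± 2.46 TPM. Cxcr6, the neighbour of Ccr9 described above, was the receptor of this list that was higher without overlap, at 378.0, 253.6 and 195.6 against 163.2, 180.8 and 185.7 TPM. Cxcr4, which is carried by most leukocytes, stood at 387.2 ± 42.7 against 464.7 ± 50.6 TPM, and Gpr183, an oxysterol receptor, at 119.5 ± 7.82 against 108.0 ± 16.2 TPM.

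Of 36 signalling genes shared by chemokine receptors, 24 were below 0 and 12 above in the log2 difference, with a median of -0.11. None passed the adjusted threshold (smallest limma adjusted p = 0.2275). At an unadjusted p under 0.05, 7 were lower and 1 higher, against 7.86% and 7.8% of all genes tested, and 3 were lower and 2 higher without overlap, against 10.4% and 10.6%. Gnai2, the inhibitory G protein subunit to which these receptors couple, stood at 509.1 ± 31.9 against 490.1 ± 25.1 TPM, Rgs1, which ends the G protein signal, at 1099 ± 209.9 against 1256 ± 87.6 TPM, and the actin regulator Coro1a at 646.1 ± 131.8 against 604.5 ± 37.3 TPM. The genes of smallest p were Plcb2, a phospholipase that G proteins activate, at 18.8 ± 3.55 against 27.7 ± 4.09 TPM, Rap1b, a GTPase of integrin activation, at 409.7 ± 12.7 against 491.0 ± 22.5 TPM, and Rgs16, which also ends the G protein signal, at 71.5, 53.5 and 61.6 against 77.4, 84.0 and 76.3 TPM.

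Of 19 T cell transcription factors, several of them known to act on receptor genes, none passed the adjusted threshold, 4 were higher and 6 lower at an unadjusted p under 0.05, against 7.8% and 7.86% of all genes tested, and the median was -0.26. Foxp3, which defines Tregs, stood at 195.3, 171.4 and 235.0 TPM in the KO-labelled libraries and at 451.4, 663.7 and 590.2 TPM in the WT-labelled ones (limma adjusted p = 0.0678). Ccr2 and Foxp3 were therefore lower in the same libraries, but not in the same measure. Ccr2 was 1.22, 1.38 and 1.08 times the level of Foxp3 in KO 1, 2 and 3 and 0.88, 0.994 and 0.996 times in WT 1, 2 and 3, a ratio formed after the values were seen. Maf stood at 226.3 ± 32.0 against 397.0 ± 70.9 TPM, Gata3 at 212.3 ± 42.1 against 123.5 ± 5.92 TPM, and Batf at 215.5 ± 27.8 against 217.6 ± 9.07 TPM.

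The genes whose pattern over the 6 libraries was most like that of Ccr2, by Pearson correlation of log2(TPM + 1) among 8282 other genes with a mean of at least 10 TPM, were Il6st (r = 0.998), which encodes the gp130 subunit of the IL-6 receptor, Kansl1 (r = 0.996) and Mysm1 (r = 0.996). Il6st stood at 83.1, 85.0 and 84.3 TPM against 139.5, 255.8 and 219.4 TPM, with WT 1 lowest of its group as for Ccr2. Kansl1 moved over a far narrower range, from 55.0 to 71.5 TPM. For Ccr7 the nearest were Cbx6 (r = 0.994), Clasrp (r = 0.993) and Exoc7 (r = 0.991). The 6 points share the split into 2 groups and the correlation was the highest of many, so it is a description.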

How the data were processed

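RNA-seq was done on Tregs of the colon, with 1.3 µg of total RNA per library in a stranded mRNA kit, per the labels' protocols. The authors deposited TPM values in 1 table with a row per RefSeq transcript, its coordinates, length and genomic copies, per the file headers. FastQC 0.11.8, Trim Galore 0.4.4, STAR 2.5.3a, HOMER 4.9.1 and mm10 come from the submitters' processing notes, without settings. TPM sums ran from 634200 to 644662 per library. TPM times length gave whole reads in units of 1 value per library (within 0.1 of a whole number for 100% of the values up to 500 reads that were checked), and these are the reads per gene. Some genes had even numbers of reads in all 6 libraries, such as Xcr1 (10 to 142) and Ccl27a (4 to 18), so reads may not be independent counts. Whether counting used strand is not stated.

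Genes with at least 1 TPM in at least 3 of 6 libraries (13211) were tested with limma 3.58.1 (R 4.3.3) on log2(TPM + 1), two-sided, with a variance trend, genotype as the only term and Benjamini-Hochberg adjustment over all of them. Fold changes on this scale understate those of low genes. The procedure was tested on simulated data with a capped spread and with large effects placed only in genes of higher level. That test does not cover small differences, or low and variable genes such as Ccr9 and Ccr10. Figures were drawn with Python 3.11.15 and matplotlib 3.10.9. The members and gene lists were chosen with earlier results of these data known. Other genes named are, per list, the 3 of highest mean and the 3 of smallest p, the ligands of each receptor, and the 3 genes most like each of the 2 highest receptors; Xcr1 and the marker genes were added after their values were seen. Libraries are not stated to come from separate animals, so a p-value covers the spread of these 6 libraries only, which could be technical. Same-numbered libraries did not deviate together (correlations 0.004, -0.219 and -0.041), so the numbers were not used as pairs. Alternatives were another pseudocount, filter, scaling or variance model, voom on the recovered reads, a replicate block, and each library left out. Columns of values without a sample numbered 0. A transcription factor of the lists is not reported here.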

Additional observations from a re-analysis of the deposited data

How the results depend on the processing

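All 14 alternatives were planned. Over all genes, none was called with any alternative that kept all 6 libraries; leaving out each library in turn gave 0 to 2 genes called higher and 0 to 12 called lower, and 0 to 1 of the other pathway genes. The highest counts (2, 12 and 1, the last being Foxp3) came without WT 1. The replicate block called 0 genes and left the median of the 9 receptors at -0.164; voom called 0, with 2177 at an unadjusted p under 0.05 against 2068 in limma on log2(TPM + 1). The median of the 9 receptors ran from -0.422 (without WT 3) to -0.157 as libraries were left out. The number of receptors lower without overlap ran from 4 to 5, and leaving out a library cannot reduce it. Ccr7 joined without KO 3 and Ccr10 without WT 3. The number of receptors with the same rank in both groups, 4 over all libraries, ran from 3 to 7 and was 7 without KO 1. With T cell gene scaling the median of the 9 receptors was 0.02 in place of -0.164, against 0.164 over all genes.

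Some differences turned sign. Among the receptors this was so for Ccr1 in 4 of the 14 settings, Ccr4 and Ccr10 in 3 each, and Ccr7 and Ccr8 in 1 each. The other genes that turned had small differences in the main fit, except Ccl11 (0.726) and Ccl7 (-0.456). With T cell gene scaling Ccl5 (-0.135) went to 0.045, Batf (-0.021) to 0.163, Ccl12 (-0.071) to 0.089 and Exoc7 (-0.141) to 0.036, and with voom Batf went to 0.022. With each library left out, Ccl5 ran from -0.45 to 0.373, Ccl3 from -0.599 to 0.046, Coro1a from -0.082 to 0.177, Batf from -0.116 to 0.068, Ccl7 from -1.002 to 0.172, Ccl2 from -0.11 to 0.391, Ccl12 from -0.287 to 0.092, Ccl11 from -0.024 to 1.466, Ccl22 from -0.373 to 0.55 and Ccl1 from -0.896 to 0.149. The cause was not tested. Depth limits Ccr10 (26 to 95 reads) among the receptors and, among the ligands, those with few reads, such as Ccl17 (2 to 37) and Ccl27a (4 to 18).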
